A study of Mus musculus with 4 samples.

Results

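The 8 genes described here, Slc1a2, Slc1a3, Aqp4, Gja1, Gfap, Aldh1l1, S100b and Sox9, are marker genes of astrocytes, read in chromatin accessibility data from sorted microglia. Each locus is the gene body with 10 kb on each side (GRCm38, GENCODE M21), and its members are the peaks overlapping it in any of 4 deposited peak lists. The 8 loci are 8 of 21701 protein-coding genes, and they held 314 deposited peaks summed over the libraries. Merging the peaks that passed a q threshold gave 84 regions at the 8 loci, of 155546 regions over chromosomes 1 to 19 and X. The loci were chosen from measured values of these same libraries, in which Slc1a2 and Gfap already stood out between the genotypes. The contrast of WT and IRF8KO at these genes is therefore a description, given without a test.

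ATAC-seq measures where the Tn5 transposase can cut chromatin, so that a peak marks accessible DNA. The labels describe microglia, the resident macrophages of the brain, prepared without enzymes and sorted by FACS from untreated C57BL/6 mice aged 3 months. The groups are WT, with 2 libraries, and IRF8KO, with 2 libraries, the latter lacking IRF8, a transcription factor of the myeloid lineage. No allele is named, and nothing states whether replicates came from separate animals, so the spread between libraries may be technical. The part of Irf8 that was removed was not read from the peaks, and the genotypes were taken from the labels.

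The headers count 46948938 tags for WT replicate 1 and 48896408 for WT replicate 2, against 78793572 for IRF8KO replicate 1 and 66224648 for IRF8KO replicate 2. Tags were 50 bp long in WT and 49 bp long in IRF8KO libraries, so genotype, depth and tag size cannot be told apart. Signal is given as pileup, the depth of extended cut sites at a peak's summit, per 1000000 header tags, and is called normalised pileup. A peak is called strict at a −log10 q of 2 or more and weak below that, and a region without any deposited peak in a library is one the caller did not list there, not one shown to be closed. The lowest deposited pileup was 6 in both WT libraries and 8 and 7 in IRF8KO replicates 1 and 2. As normalised pileup this was 0.128 and 0.123 in WT and 0.102 and 0.106 in IRF8KO. Fainter normalised peaks could thus be listed in IRF8KO than in WT. The median normalised pileup of regions strict in all 4 libraries was 0.958 and 0.777 in WT and 0.558 and 0.876 in IRF8KO, so that IRF8KO replicate 1 lay lowest. Over all 58550 regions with a peak in every library, 71.5% were lower in IRF8KO and the median log2 ratio of IRF8KO to WT was −0.31. Ratios below are to be read against this shift.

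Astrocytes take up glutamate and potassium from around synapses, share metabolites through gap junctions and line blood vessels with endfeet. Slc1a2 and Slc1a3 encode their glutamate transporters, Aqp4 the water channel of the endfeet and Gja1 a connexin of their gap junctions. Gfap encodes an intermediate filament, Aldh1l1 a folate enzyme, S100b a calcium-binding protein and Sox9 a transcription factor of the astrocyte lineage. In myeloid cells IRF8 binds DNA together with the ETS factor PU.1 at composite elements that join an ETS core to an IRF site.

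Accessible regions that were strict in both WT libraries and had no deposited peak in either IRF8KO library are called WT-specific, and the converse IRF8KO-specific. There were 10 WT-specific regions among the 84, and all 10 lay at the glutamate transporter genes, 4 at Slc1a2 and 6 at Slc1a3. The other 6 loci together held 38 regions and 0 WT-specific ones. The single IRF8KO-specific region lay at Gja1. Across the genome 5.58% of regions were WT-specific and 3.86% were IRF8KO-specific, against 11.9% and 1.19% of the 84, and since the contrast took part in the choice of loci nothing is read from the difference. The WT-specific regions at the transporter genes had a mean WT signal of 0.219 to 0.881 normalised pileup, with a median of 0.376, close to the median of 0.366 of all WT-specific regions.

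Windows of 201 bp around the summit show the DNA of the regions on which the values below turn. They are printed on the plus strand from the RefSeq GRCm38 sequence, with matches to 6 searched motifs in capitals. The first 3 come from an intron of Slc1a2 and the fourth from downstream of that gene. The capitals mark an ETS-IRF composite, GGAANNGAA or its reverse complement, in the first and the third, and the PU.1 motif GAGGAAGT in the second and the fourth.
Slc1a2 chr2:102736626-102736826: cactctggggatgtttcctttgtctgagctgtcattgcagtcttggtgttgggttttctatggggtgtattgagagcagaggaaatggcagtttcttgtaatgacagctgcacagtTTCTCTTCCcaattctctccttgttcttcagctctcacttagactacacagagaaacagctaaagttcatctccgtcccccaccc
Slc1a2 chr2:102745316-102745516: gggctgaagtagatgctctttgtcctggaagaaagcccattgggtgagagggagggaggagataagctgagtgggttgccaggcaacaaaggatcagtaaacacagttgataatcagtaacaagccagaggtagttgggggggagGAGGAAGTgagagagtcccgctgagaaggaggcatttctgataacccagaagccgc
Slc1a2 chr2:102751926-102752126: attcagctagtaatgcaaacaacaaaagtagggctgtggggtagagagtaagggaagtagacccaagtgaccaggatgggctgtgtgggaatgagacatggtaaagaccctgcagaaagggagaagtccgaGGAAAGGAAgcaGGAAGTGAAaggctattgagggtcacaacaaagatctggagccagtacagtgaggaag
Slc1a2 chr2:102795132-102795332: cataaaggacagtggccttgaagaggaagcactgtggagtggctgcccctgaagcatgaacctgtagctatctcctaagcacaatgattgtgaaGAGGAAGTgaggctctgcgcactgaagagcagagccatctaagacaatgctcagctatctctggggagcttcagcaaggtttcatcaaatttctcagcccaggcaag

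Introns of Slc1a3 gave the next windows. The first is the region with the largest WT to IRF8KO ratio at any of the 8 genes among those with a peak in every library, and its capitals mark an NFI motif, TTGGCA or its reverse complement; its left end overlaps an exon of a non-coding transcript. The capitals of the other two mark ETS-IRF composites. The last line is the S100b intron region, which was higher in both IRF8KO libraries and holds an NFI motif.
Slc1a3 chr15:8681145-8681345: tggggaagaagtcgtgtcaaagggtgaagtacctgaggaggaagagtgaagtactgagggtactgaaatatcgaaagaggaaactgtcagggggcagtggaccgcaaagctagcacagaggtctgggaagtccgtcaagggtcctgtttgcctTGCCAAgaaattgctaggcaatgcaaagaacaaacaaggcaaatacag
Slc1a3 chr15:8682694-8682894: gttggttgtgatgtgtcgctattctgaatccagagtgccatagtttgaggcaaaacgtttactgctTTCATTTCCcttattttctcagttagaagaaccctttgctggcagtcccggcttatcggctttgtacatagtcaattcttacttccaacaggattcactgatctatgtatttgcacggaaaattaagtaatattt
Slc1a3 chr15:8690858-8691058: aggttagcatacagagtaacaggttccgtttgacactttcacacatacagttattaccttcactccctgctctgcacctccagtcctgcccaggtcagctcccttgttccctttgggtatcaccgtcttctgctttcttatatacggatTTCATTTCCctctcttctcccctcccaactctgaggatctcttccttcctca
S100b chr10:76258087-76258287: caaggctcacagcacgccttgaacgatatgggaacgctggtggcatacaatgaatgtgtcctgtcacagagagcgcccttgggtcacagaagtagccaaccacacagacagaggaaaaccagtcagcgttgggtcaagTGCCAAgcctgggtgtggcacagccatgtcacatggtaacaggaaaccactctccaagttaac

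An ETS-IRF composite was found in the windows of 5 of the 10 WT-specific regions, 3 at Slc1a2 and 2 at Slc1a3. It was found in 0 of the 28 regions at the 8 loci that were strict in all 4 libraries. For comparison, 25.2% of all WT-specific regions and 9.07% of all 155546 regions held it in windows of the same length. PU.1 motifs lay in 2 of the 10, against 9.34% of all WT-specific and 7.73% of all regions. The composite and the PU.1 motif share the GGAA core and can overlap, and both strands were searched. Of the remaining motifs, NFI, named for factors that act in astrocyte development, lay in 1 of the 10 and in 6 of the 28, against 10.7% of all regions. The AP-1 motif TGANTCA, the SOX motif AACAATG and the STAT motif TTCCNGGAA were found in 0 of the 10, against 8.11%, 2.60% and 0.695% of all regions. Over all 84 regions the counts were 9 for ETS-IRF, 5 for PU.1, 4 for AP-1, 3 for SOX, 11 for NFI and 1 for STAT. A match describes the letters in a window and not a bound site.

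Slc1a2 (chr2:102658659-102790784, plus strand) held less signal in both IRF8KO libraries than in either WT library. The summed normalised pileup of all deposited peaks at the locus reached 9.12 in WT replicate 1 and 7.75 in WT replicate 2, but 1.59 and 2.42 in the IRF8KO libraries. The groups did not overlap. The means were 8.43 ± 0.965 (SD, n = 2) in WT and 2.0 ± 0.587 (SD, n = 2) in IRF8KO, a ratio of 4.21 and a log2 difference of −2.05 on the log2(sum + 0.1) scale, with a pooled SD of 0.31 between libraries. Sums over called peaks move with how much was called. The peaks covered 3291 and 2946 bp in WT and 1444 and 1880 bp in IRF8KO, and the mean normalised pileup per peak was 0.570, 0.431, 0.159 and 0.220 in the same order. Strict peaks numbered 14, 12, 4 and 6. Scaling each library to the regions strict in all 4 kept the direction, and over all 12 alternative settings the log2 difference ran from −2.72 to −1.49.

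**Figure D1:**
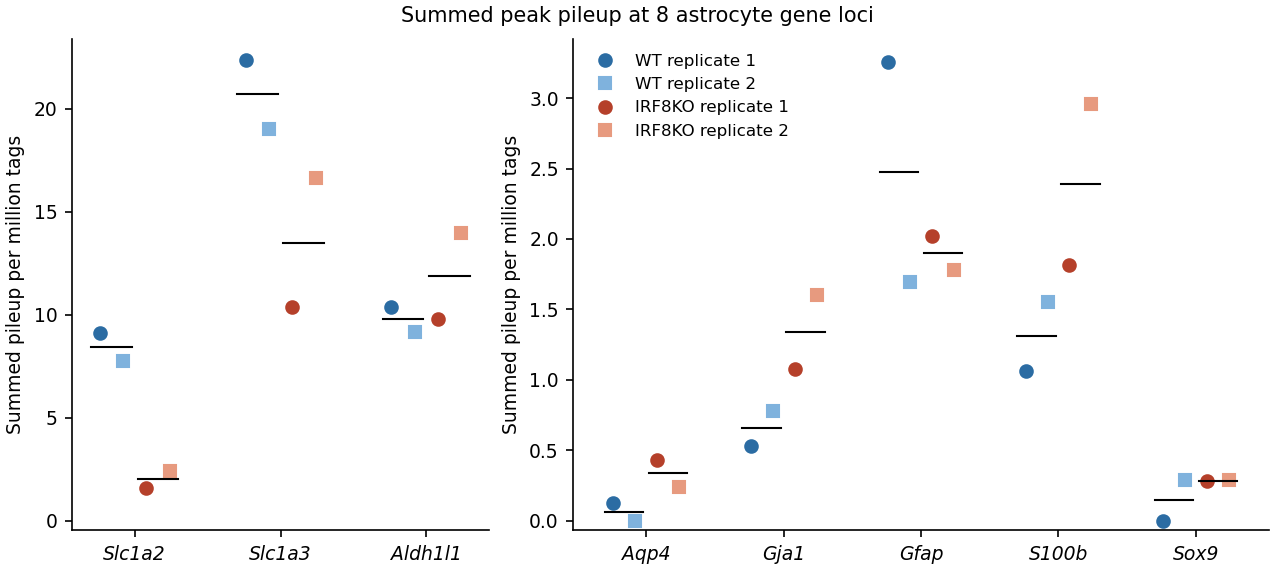
Summed normalised pileup of all deposited peaks at each of the 8 loci, on the vertical axis, with 1 point per library, a black bar at each group mean and different vertical scales in the left and right panels. WT points lie above IRF8KO points without overlap at Slc1a2 and Slc1a3, and IRF8KO points lie above WT points at Aqp4, Gja1 and S100b.

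The Slc1a2 signal was concentrated in the middle of the gene rather than at its first annotated start. Protein-coding transcripts of Slc1a2 start at 6 annotated positions. The cluster described next lay 3.88 to 19.2 kb from the nearest of these, which is inside the gene. Between 78.1 and 93.4 kb from the gene start lay 8 regions, of which 8 and 6 were strict in the WT libraries but 2 and 4 in the IRF8KO libraries. The highest, at chr2:102745251-102745569 in an intron, reached 1.73 and 1.76 normalised pileup in WT, had no peak in IRF8KO replicate 1 and reached 0.272 in replicate 2. WT was thus higher in both libraries, although 1 IRF8KO library still held a strict peak there. The WT-specific region at chr2:102736526-102736822, also intronic, gave 1.09 and 0.675 in WT. At chr2:102738854-102739129 the WT values were 0.873 and 1.04, with no peak and a weak peak of 0.151 in IRF8KO. The region at chr2:102751807-102752338 had a peak in every library, with 1.17 and 0.982 in WT and 0.114 and 0.227 in IRF8KO, a log2 ratio of −2.74.

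Not every region of this stretch separated the genotypes. At chr2:102744021-102744310, which overlaps an exon of a non-coding transcript of Slc1a2, the values were 0.745 and 0.409 in WT and 0.343 and 0.634 in IRF8KO. Here the groups overlapped, with a log2 ratio of −0.24. Its neighbour at chr2:102745638-102745994 gave 0.660 and 0.389 in WT and 0.216 and 0.287 in IRF8KO, with no overlap. The remaining 3 WT-specific regions lay between genes, downstream of the 3′ end. Their WT values were 0.213 and 0.245 at chr2:102791748-102791959, 0.234 and 0.205 at chr2:102792091-102792206, and 0.490 and 0.409 at chr2:102795090-102795323. The first 2 of these are among the weakest WT-specific regions at the 8 loci, near the level at which a strict call becomes possible.

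**Figure D2:**
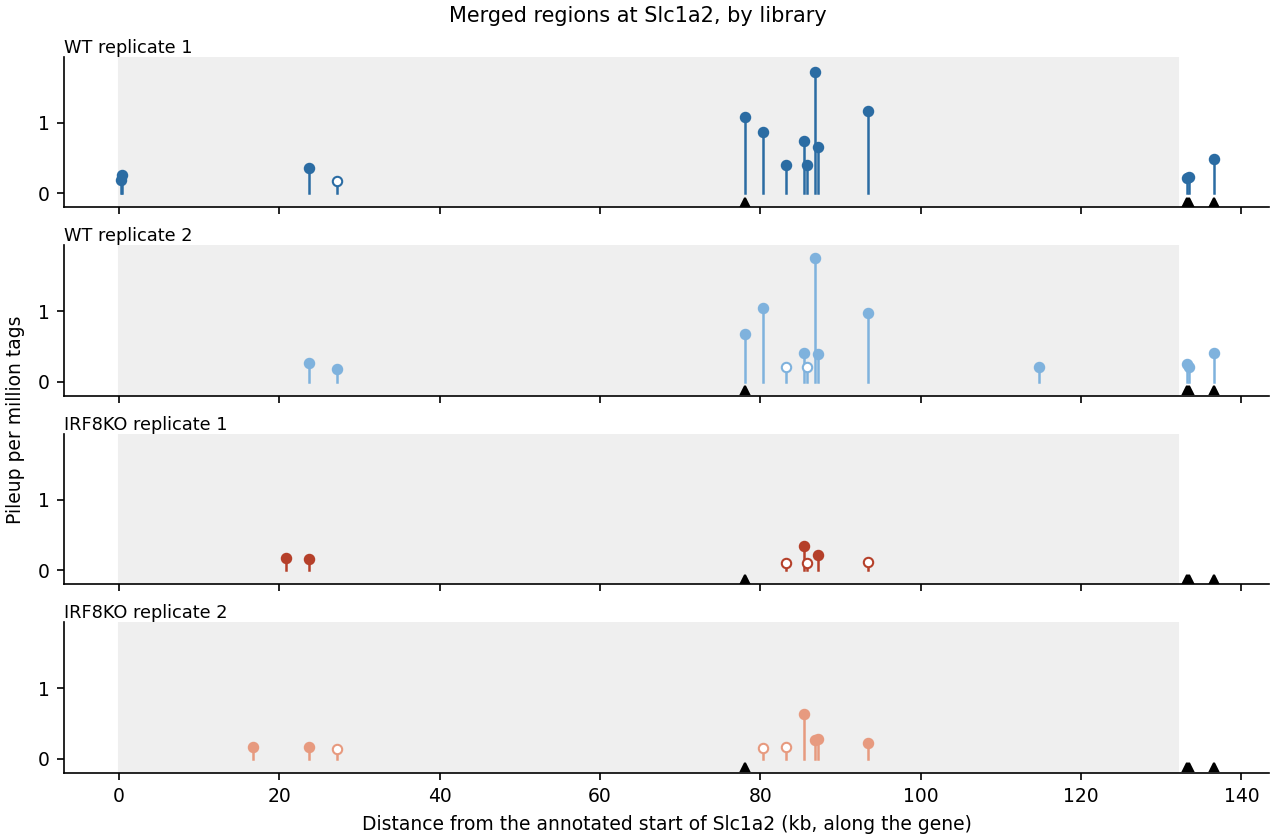
Regions at the Slc1a2 locus, with distance from the gene start in kb on the horizontal axis and normalised pileup on the vertical axis, in 1 panel per library; filled points are strict, open points weak, triangles mark WT-specific regions and grey the gene body. The cluster between 78.1 and 93.4 kb reaches 1.73 and 1.76 in the WT panels and no more than 0.343 and 0.634 in the IRF8KO panels.

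At the Slc1a2 promoter, within 1 kb of an annotated start of a protein-coding transcript, there was little signal in any library. A strict peak of 0.256 normalised pileup was listed in WT replicate 1, none in WT replicate 2 or IRF8KO replicate 1, and a weak peak of 0.106 in IRF8KO replicate 2. The promoter is rich in CpG, with an observed to expected ratio of 0.810. Across the genome 87.3% of the 9733 promoters with a ratio of 0.6 or more were strict in all 4 libraries, and 2.39% had no peak in any. The intragenic regions of Slc1a2 were thus listed without a peak within 1 kb of any annotated start in 1 of the 2 WT libraries. The 5 genes whose 4 summed values lay closest to those of Slc1a2, by Euclidean distance in log2(sum + 1) over the 4 libraries, were Dyrk4 (0.238), Cdh5 (0.276), Klhdc4 (0.302), Haao (0.304) and Oaf (0.332). Cdh5, which encodes an endothelial cadherin, gave sums of 11.0 and 8.30 in WT and 1.54 and 2.22 in IRF8KO.

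Slc1a3 (chr15:8634124-8710764, minus strand), the glutamate transporter also known as GLAST, was the most accessible of the 8 loci. Per kb of window its summed normalised pileup was 0.231 and 0.197 in WT and 0.107 and 0.172 in IRF8KO, against 0.0599, 0.0510, 0.0104 and 0.0159 at Slc1a2. The next loci by this measure were Aldh1l1, from 0.0683 to 0.104 over the libraries, S100b, from 0.0390 to 0.108, and Gfap, from 0.0506 to 0.0971, whose ranges overlap. Slc1a2 lay among these in WT, but in IRF8KO it lay below Gja1 (0.0118 to 0.0354 over the libraries) and near Sox9 (0 to 0.0112) and Aqp4 (0 to 0.0104). The Slc1a3 sums themselves were 22.4 and 19.0 in WT and 10.4 and 16.6 in IRF8KO. Both WT libraries lay above both IRF8KO libraries, with means of 20.7 ± 2.35 and 13.5 ± 4.41 (SD, n = 2 each) and a ratio of 1.53. The log2 difference was −0.65 with a pooled SD of 0.36, and it lay below the median of −0.32 over all loci by less than that SD. Over the alternative settings it ran from −1.34 to −0.31. The peaks covered 5775 and 5490 bp in WT and 3844 and 4508 bp in IRF8KO, with means per peak of 0.799, 0.762, 0.546 and 0.978. IRF8KO replicate 2 had the highest mean per peak of the 4, so that the lower sums in IRF8KO went with fewer peaks and not with a lower mean in both libraries. Strict peaks numbered 24, 21, 15 and 16.

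The regions of Slc1a3 fell into contrasting kinds. At an intronic region, chr15:8681100-8681441, WT gave 2.36 and 2.17 normalised pileup and IRF8KO gave 0.152 and 0.332. All 4 peaks were strict and the groups lay far apart, with a log2 ratio of −3.33, the lowest at any of the 8 genes. The neighbouring WT-specific region at chr15:8682695-8682859 gave 0.554 and 0.654 in WT. Of the other WT-specific regions, 4 were intronic, with WT values of 0.298 and 0.409 at chr15:8660454-8660690, 0.532 and 0.266 at chr15:8663047-8663230, 0.256 and 0.307 at chr15:8690776-8691086, and 0.298 and 0.245 at chr15:8706345-8706478. The last, at chr15:8635859-8635946, gave 0.447 and 0.348 in a UTR at the 3′ end and ended next to a region with strict peaks in every library, chr15:8635948-8636351. That region, in a coding exon, gave 2.49 and 1.98 in WT and 0.571 and 1.40 in IRF8KO, without overlap and with a log2 ratio of −1.31.

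Beyond the 3′ end of Slc1a3 lay regions with high signal in all libraries. The highest region, chr15:8627011-8627540 beyond the 3′ end, gave 3.07 and 2.64 in WT and 2.58 and 3.82 in IRF8KO, with overlapping groups. Its level was near the 90th percentile of 3.09 of all regions strict in all 4. Its neighbour at chr15:8625408-8625732 went the other way, with 1.45 and 1.35 in WT and 2.31 and 3.64 in IRF8KO, a log2 ratio of 1.05. Both IRF8KO libraries were higher there. The Slc1a3 promoter was strict in all 4 libraries, with 0.682 and 0.777 in WT and 0.216 and 0.393 in IRF8KO. It is of intermediate CpG content (0.554), a class in which 59.5% of promoters were strict in all 4.

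**Figure D3:**
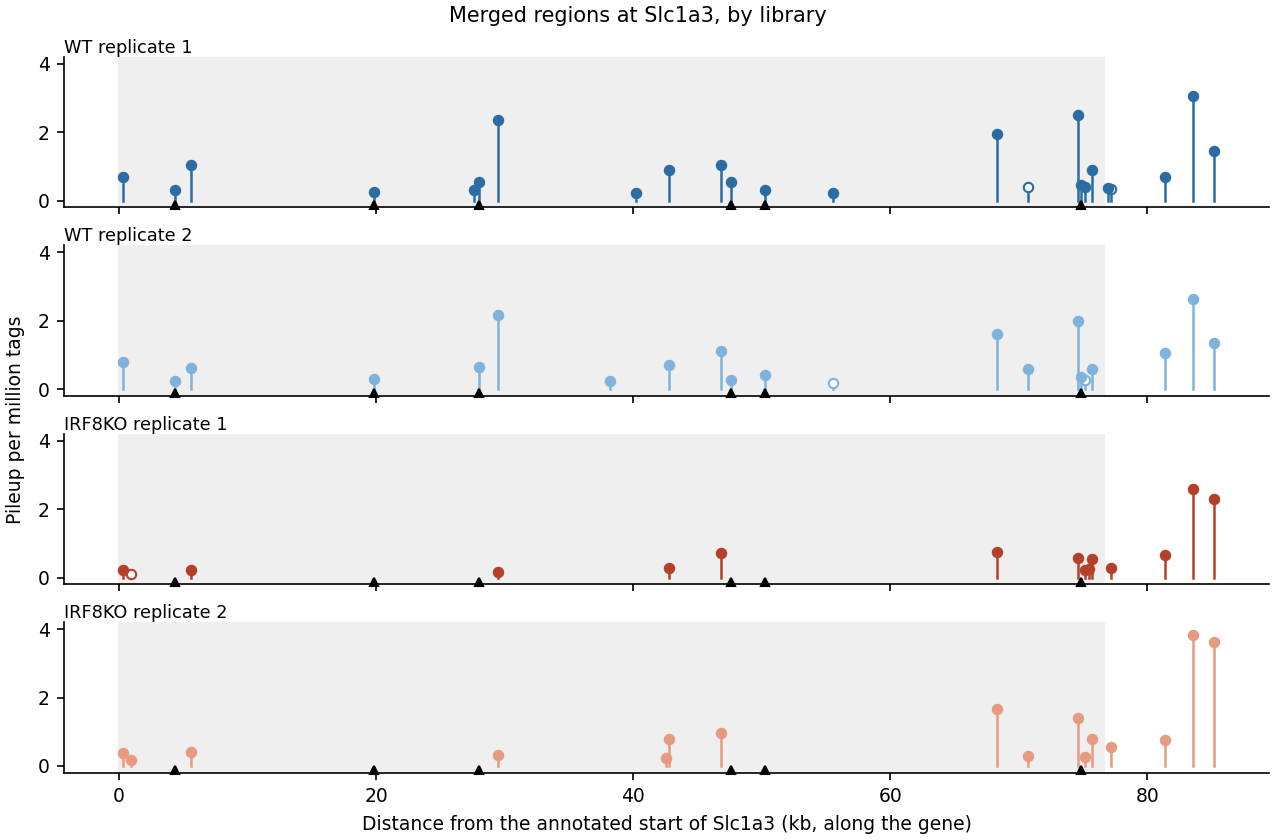
Regions at the Slc1a3 locus, with distance from the gene start in kb on the horizontal axis and normalised pileup on the vertical axis, in 1 panel per library, with the same symbols as for Slc1a2. The region 29.5 kb from the start stands at 2.36 and 2.17 in the WT panels and at 0.152 and 0.332 in the IRF8KO panels, while the region 83.6 kb from it is at 2.58 or more in all 4.

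The genes of the endfoot and the gap junction carried little signal in either genotype. Aqp4 had sums of 0.128 and 0 in WT and 0.432 and 0.242 in IRF8KO. Both IRF8KO libraries were higher, but each value rests on 3 or fewer peaks near the lowest pileup that is listed. The 2 regions at the locus were strict in IRF8KO replicate 1 alone, both at 0.165, and the Aqp4 promoter had no peak in any library. At Gja1 (chr10:56377330-56402513, plus strand) the sums were 0.532 and 0.777 in WT and 1.08 and 1.60 in IRF8KO. Here too both IRF8KO libraries were higher, with a log2 difference of 0.93 and a pooled SD of 0.35. The covered length was 329 and 547 bp in WT and 931 and 1299 bp in IRF8KO, while the mean per peak was 0.266, 0.194, 0.180 and 0.200. The higher sums thus came with more listed peaks, and the mean per peak was highest in WT replicate 1. The IRF8KO-specific region at chr10:56377854-56378177, in an exon of a non-coding transcript just inside the gene, gave 0.216 and 0.196. At that level the WT libraries would reach a pileup of 9.67 and 10.1, close to their lowest strict pileup of 9. The region of the Gja1 start itself gave 0.192 and 0.164 in WT and 0.152 and 0.196 in IRF8KO, with overlapping groups. Taking the highest peak within 1 kb of any start, the Gja1 promoter gave 0.192 and 0.164 in WT and 0.216 and 0.196 in IRF8KO, narrowly without overlap. The highest region, chr10:56369142-56369434 upstream, was strict in all 4 at 0.341, 0.327, 0.279 and 0.423.

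At Gfap (chr11:102887336-102900912, minus strand) the difference was at the promoter and not in the sum. The promoter, taken as the highest peak within 1 kb of any start, held strict peaks of 0.426 and 0.327 normalised pileup in WT. In IRF8KO it held weak peaks of 0.127 and 0.136. The region of the WT peaks, chr11:102896559-102896800, had no peak in IRF8KO replicate 2, whose 0.136 lay elsewhere in the promoter window. WT lay above IRF8KO without overlap. This was the only one of the 8 promoters that reached strict peaks with each WT library and with no IRF8KO library, against 1.40% of 21619 promoters, and 0 of the 8 showed the converse, against 0.851%. Gfap was among the genes chosen for this pattern, so its promoter count supports nothing. The locus sums were 3.26 and 1.7 in WT and 2.02 and 1.78 in IRF8KO, so the groups overlapped. The log2 difference of −0.30 was smaller than its pooled SD of 0.46, and it turned to 0.18 for the gene body alone and to 0.15 without WT replicate 1. The highest region of the locus, chr11:102880834-102881439, is the promoter of a neighbour, Eftud2, at 0.639, 0.511, 0.482 and 0.423. At the far 5′ annotated end of Gfap, chr11:102900822-102901274 was strict in all 4 at 0.256, 0.184, 0.254 and 0.287, with overlapping groups.

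**Figure D4:**
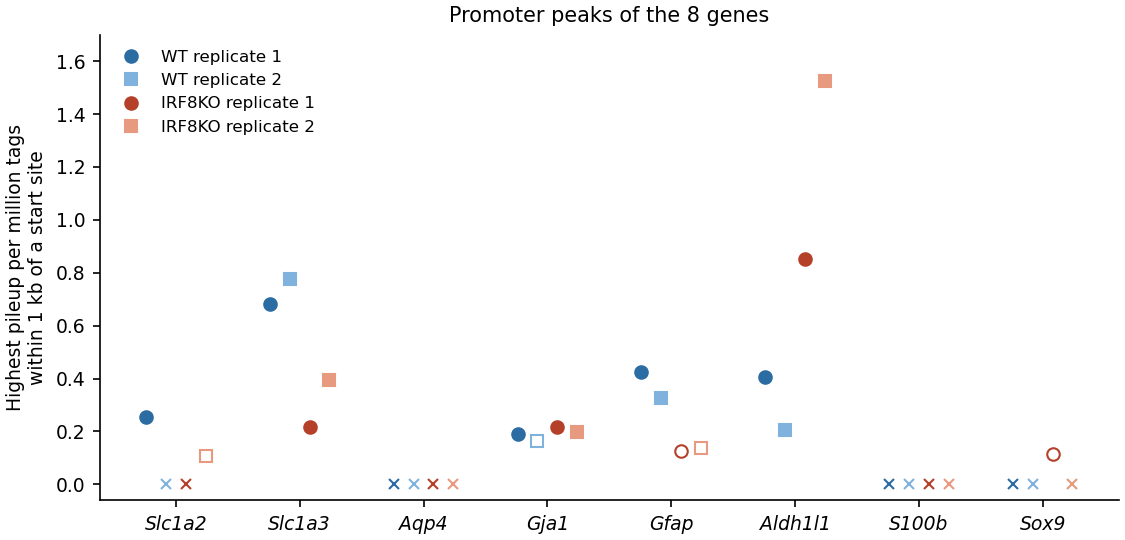
Normalised pileup at the promoters of the 8 genes, within 1 kb of a start, on the vertical axis, with 1 point per library, filled if strict, open if weak and a cross if no peak was listed. The Slc1a3 and Gfap promoters are higher in both WT libraries, the Aldh1l1 promoter and, by a small margin, the Gja1 promoter are higher in both IRF8KO libraries, and those of Aqp4 and S100b have no peak in any library.

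Aldh1l1 (chr6:90486427-90600203, plus strand) carried its difference in the direction opposite to Slc1a2. The region over its principal start, chr6:90550184-90551148, gave 0.405 and 0.205 in WT and 0.850 and 1.53 in IRF8KO. All 4 peaks were strict, both IRF8KO libraries were higher and the log2 ratio was 1.98. An intronic region at chr6:90575234-90575809 gave 0.192 and 0.245 in WT and 0.495 and 0.498 in IRF8KO, a log2 ratio of 1.2. These were the 2 regions with a peak in all 4 libraries in which both IRF8KO values were at least 2 times both WT values. The locus sums, 10.4 and 9.14 in WT and 9.81 and 14.0 in IRF8KO, overlapped between the groups, and much of them came from peaks nearer to another gene. The highest region of the locus, chr6:90604508-90605265, is the promoter of Slc41a3, at 3.68, 2.84, 2.27 and 3.53. Counting only peaks nearer to a start of Aldh1l1 gave 2.04 and 2.23 in WT and 2.98 and 4.48 in IRF8KO, with no overlap. The promoter is poor in CpG (0.340), a class in which 22.6% of promoters were strict in all 4 and 51.9% had no peak in any library.

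S100b (chr10:76253853-76261159, plus strand) had its highest signal in an intronic region, the only one at the locus with a peak in all 4 libraries. At chr10:76257744-76258369 the values were 0.937 and 0.573 in WT and 1.7 and 2.81 in IRF8KO, all strict, with a log2 ratio of 1.58. Both IRF8KO libraries were higher. The locus sums were 1.06 and 1.55 in WT and 1.81 and 2.96 in IRF8KO, also without overlap, with a log2 difference of 0.80 and a pooled SD of 0.42. Over 12 alternative settings that difference ran from 0.15 to 1.14. Summed fold enrichment was 14.5 and 23.5 in WT and 17.4 and 24.4 in IRF8KO, with overlapping groups. In WT replicate 2 the sum came from 5 peaks, and in each other library from 2. The S100b promoter had no peak in any library. Sox9 (chr11:112782224-112787760, plus strand) was nearly empty, with sums of 0 and 0.286 in WT and 0.279 and 0.287 in IRF8KO. Its one region, chr11:112774004-112774136 upstream of the gene, was strict at 0.165 in IRF8KO replicate 1 alone. Its CpG ratio of 0.804 is in the class of which 2.39% of promoters lacked a peak in every library, and the only peak at its promoter was a weak one of 0.114 in IRF8KO replicate 1.

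Over the 8 loci, summed signal was higher in both WT libraries at 2 of the 8, Slc1a2 and Slc1a3, against 38.5% of 19820 protein-coding loci with a peak. It was higher in both IRF8KO libraries at 3 of the 8, Aqp4, Gja1 and S100b, against 7.87% of loci. Scaled to the regions strict in all 4, the counts were 2 and 4 of the 8, Aldh1l1 joining, against 27.5% and 21.8% of loci. The median log2 difference over the 8 loci was 0.53, against −0.32 over all loci, and nothing particular to the 8 is read from this. Among the 33 regions at the 8 loci with a peak in all 4 libraries, 23 were lower in IRF8KO and the median log2 ratio was −0.34, near the −0.31 of all such regions. Both WT values were at least 2 times both IRF8KO values in 2 of the 33, which is 6.06% against 5.74% of all such regions. The converse also held in 2 of the 33, against 2.35%, and in 4 after scaling, against 5.30%. The WT share is near its background.

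**Figure D5:**
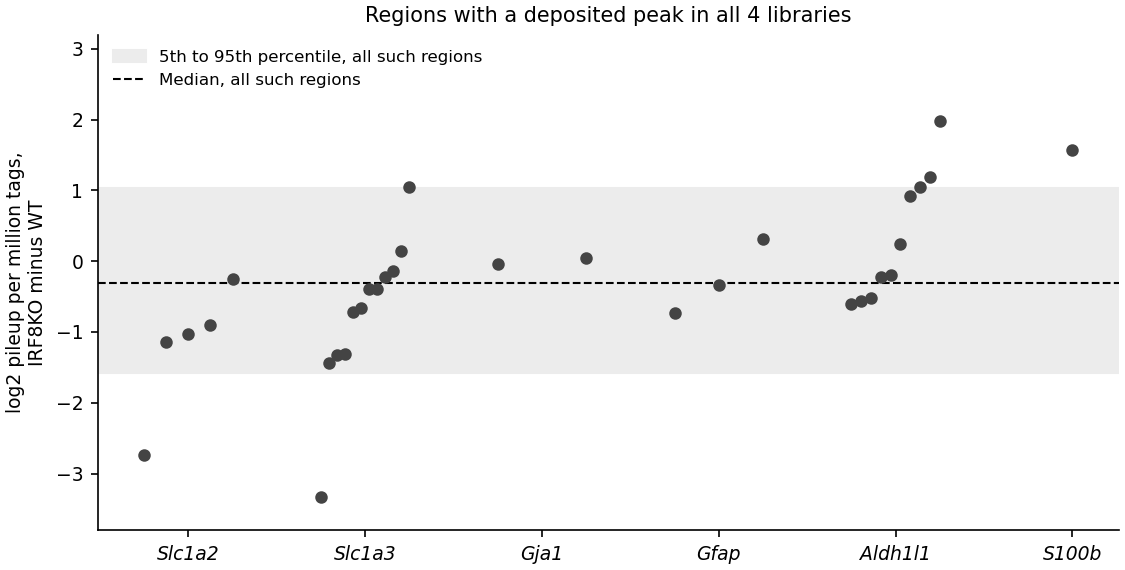
The 33 regions at the 8 loci with a peak in all 4 libraries, by gene, with the log2 ratio of IRF8KO to WT normalised pileup on the vertical axis; the dashed line is the median of all such regions, −0.31, and grey their 5th to 95th percentile, −1.58 to 1.04. The points reach from −3.33 at Slc1a3 and −2.74 at Slc1a2 to 1.98 at Aldh1l1.

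By position, 50 of the 84 regions lay in introns, 16 between genes, 10 in UTRs, 5 in exons of non-coding transcripts and 3 in coding exons, 11 were within 1 kb of a start, and 15 were nearer to a start of another protein-coding gene. Of the 84, 28 were strict in all 4 libraries and 32 in only 1, near the shares of 31.0% and 43.1% over all regions. The nearest region inside the 10 kb limit was 9.33 kb from S100b, with 0.184 in WT replicate 2 alone. The nearest one outside was 11.7 kb from Slc1a3, with 0.341 and 0.511 in WT and no peak in IRF8KO.

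A wider list of 26 astrocyte genes held few genotype-specific regions. Of its 265 regions 7, or 2.64%, were WT-specific and 4, or 1.51%, IRF8KO-specific, both below the shares of 5.58% and 3.86% over all regions. WT-specific regions lay at Nfia (4), which encodes an NFI transcription factor, and at Nfib, Aldoc and Slc4a4 (1 each). IRF8KO-specific regions lay at Nfia, Slc4a4, Cldn10 and Slc25a18, 1 at each. The Sox2 promoter was strict in both WT libraries only, at 0.405 and 0.348 against weak peaks of 0.14 and 0.151. The Emx2 promoter was strict in both IRF8KO libraries only, at 0.216 and 0.242 against a weak peak of 0.170 in WT replicate 1 and none in WT replicate 2. Summed signal was higher in both WT libraries at 9 of the 26 loci and in both IRF8KO libraries at 3, near the 38.5% and 7.87% of all loci.

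The label of the sorted cells was read against marker promoters. Strict promoter peaks were present at 10, 10, 9 and 9 of 10 microglial genes, the WT libraries given first here and below. They were present at 5, 3, 3 and 3 of the 8 astrocyte genes and at 15, 15, 14 and 18 of the wider 26. For neuronal genes the counts were 2, 6, 3 and 2 of 8, for oligodendrocyte genes 5, 6, 3 and 5 of 8, and for endothelial genes 5, 4, 4 and 4 of 8. Promoters strict in all 4 libraries numbered 9 of 10 microglial genes, 2 of the 8 and 12 of the wider 26 astrocyte genes, 1 neuronal, 3 oligodendrocyte and 4 endothelial genes of 8 each, against 56.9% of all 21619 promoters. The summed normalised pileup of the 8 astrocyte loci was 46.9 and 40.2 in WT and 27.4 and 39.9 in IRF8KO. It was 226 and 175 in WT and 119 and 162 in IRF8KO for the microglial loci, and 62.3 and 51.6 in WT and 28.8 and 38.9 in IRF8KO for the endothelial loci. For the oligodendrocyte loci it was 40.1 and 32.3 in WT and 17.9 and 28.1 in IRF8KO, and for the neuronal loci 18.9 and 24.7 in WT and 16.2 and 17.5 in IRF8KO. Each of these 4 lists, microglia included, was higher in both WT libraries. The 8 astrocyte loci were so by a narrow margin, 40.2 in the lower WT library against 39.9 in the higher IRF8KO library. The wider astrocyte list gave 134.5 and 121.7 in WT and 92.2 and 132.8 in IRF8KO, with overlapping groups. Promoters without a peak in any library included those of Aqp4, S100b, Gjb6, Mlc1 and Slc25a18 among the astrocyte genes. In such bulk libraries, fewer cells of a type and less signal per cell cannot be told apart, and the part of other cell types in the values at Slc1a2 and Slc1a3 was not tested.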

How the data were processed

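The deposited files are MACS2 peak lists, 1 per library, from ATAC-seq of 2 WT and 2 IRF8KO microglia samples. The submitters' processing notes name bcl2fastq, Bowtie2, MACS2 2.1.1.20160309, deepTools and mm10, with no role or order. Each library was called on its own, with no control sample and a p limit of 0.01, per the file headers, which also record that the authors moved cut sites by 37 bp and extended them to 73 bp. The deposited pileup is a signal, the depth at the summit. The deposited fold is a ratio of enrichment over local background, and the deposited −log10 q values were used for the threshold, although the headers state that q was not calculated.

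Entries were reduced to distinct peaks (best summit) on chromosomes 1 to 19 and X. Strict peaks (−log10 q of 2 or more) of the 4 libraries were merged into regions, and 1 bp of overlap counted as presence. Pileup was given per 1000000 header tags, locus sums used all deposited peaks, and logs used a pseudocount of 0.1. The precision is set by the depth and by 2 libraries per genotype. Python 3.11, pandas 2.3.3 and pysam 0.24.0 were used, and region calling was tested on simulated data. The members and lists were chosen with earlier results of these data known. Regions named are the genotype-specific ones, promoter regions and the highest region of each member, and others were named after their values were seen. Genes of the wider list are named where they hold a genotype-specific region or a promoter strict in 1 genotype only. CpG ratios cover 500 bp on each side of the principal start, with classes at 0.6 and 0.4, and motif windows 100 bp on each side of a summit. Alternatives changed the q threshold, the scaling, the measure, the window, neighbouring peaks, the overlap, the pseudocount and the libraries used.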

Additional observations from a re-analysis of the deposited data

How the results depend on the processing

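The count of 2 loci with higher sums in both WT libraries stayed within 1.5 times under all 11 alternatives, and the log2 difference at Slc1a2 kept its sign under all 12. The 10 WT-specific regions became 3 at a −log10 q of 5 or more, where fewer peaks qualify, and 11 to 18 when 1 library was left out, 18 without WT replicate 2, since fewer libraries have to meet the rule. The 1 IRF8KO-specific region became 0 at a −log10 q of 5 or more, 4 with all deposited peaks, 2 with 50 kb on each side, and 2 to 10 when 1 library was left out (2 and 3 without WT replicates 1 and 2, 8 and 10 without IRF8KO replicates 1 and 2). The median log2 difference of 0.53 over the 8 loci was 0 at a −log10 q of 5 or more, 0.82 after scaling to shared regions, 0.26 with fold enrichment, 0.056 with 50 kb on each side and 0.78 without peaks nearer to another gene. It was 0.29 with a pseudocount of 0.5, an alternative chosen after seeing the data, and 0.24 to 0.74 when 1 library was left out (0.25 without WT replicate 1, 0.74 without IRF8KO replicate 1, 0.24 without IRF8KO replicate 2). Otherwise the cause of these moves was not tested. No paired analysis was possible because the labels tie the replicate numbers to no shared animal or batch, and the values are counts and sums with no fitted model to hold a block. Depth limits what can be said of Aqp4 and Sox9, whose few peaks lie near the lowest listed pileup. It also limits what can be said of the IRF8KO-specific region at Gja1.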
